A study of Mus musculus with 2 samples.

Results

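DNA replication genes here are 43 genes for the machinery that copies the genome in S phase, listed by name, with earlier results of these data known. All 43 were rows of both count matrices, which hold 32285 genes each. They were sorted by role into 11 genes of origin licensing, 5 of helicase activation, 6 of the polymerases and primase, 6 of the sliding clamp and its loader, 3 of single-strand binding, 2 of Okazaki fragment joining, 4 of nucleotide supply, 4 of the chromatin behind the fork and 2 of fork protection and uracil repair. Their levels were compared between ciliary margin, neurogenic, postmitotic and progenitor cells within each library, and then between the libraries.

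The cells came from the peripheral retina of mouse embryos at E13.5, from α-Cre;Td animals on an albino and on a pigmented background. In both groups the Cre, driven by a Pax6 retinal enhancer known to be active in peripheral retina, switches on TdTomato, and the cells were sorted for this red protein. Each group is 1 droplet library of 3 pooled embryos, the albino one labelled with strain Swizz ICR and the pigmented one with Tyrc2j. Tyrc2j is known as the name of an albino allele of tyrosinase, which goes against the title of the pigmented library. The titles were followed, and if they were exchanged every albino over pigmented ratio would turn round. With 1 library per group there was no test between groups. Pigmentation, strain, pool, sex and library cannot be told apart.

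Replication starts at origins that were licensed in G1, when the origin recognition complex (Orc1 to Orc6), Cdc6 and Cdt1 load the Mcm2 to Mcm7 ring, the core of the replicative helicase, onto DNA. Cdc45 and the GINS complex turn the ring into an active helicase at the start of S phase, primase and the polymerases copy the strands, Pcna clamps the polymerases to DNA, and the clamp loader of Rfc subunits puts Pcna in place. Many of these genes are known targets of E2F factors, which are released as a cell commits to S phase. In the embryonic retina, multipotent progenitors divide, neurogenic cells that turn on Atoh7 or Neurog2 pass through their last divisions, and the neurons born from them do not replicate again. The ciliary margin is the rim of the optic cup that forms the ciliary body and iris, and it also gives rise to some neurons.

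The matrices held 3676 albino and 6089 pigmented barcodes with 46271969 and 69965728 UMIs (unique molecules), and 3409 albino and 5596 pigmented cells were kept, with median UMIs of 11138 and 10260. The libraries shared 8 barcodes. The pools differ in sex, since Xist without a Y-linked UMI was found in 96.1% of albino and 29.3% of pigmented cells. Clusters were built without the 43 genes and were named from markers. The classes were CMZ-like cells (ciliary margin zone, 267 albino and 638 pigmented cells), neurogenic-like cells (440 and 818), postmitotic cells (930 and 1019, namely clusters like ganglion cells, photoreceptors, and amacrine or horizontal cells) and RPC-like cells (retinal progenitors, 1195 and 2224). Median UMIs of albino and pigmented cells were 13241 and 14386 in CMZ-like, 10359 and 9662.5 in neurogenic-like, 13307 and 11098 in postmitotic and 10310 and 9778.5 in RPC-like cells. The class names were checked against their markers. The 9 CMZ markers summed to 622 and 724 CPM (UMIs per 1000000 UMIs of the same cells) in albino and pigmented CMZ-like cells, against 156 and 150 CPM in RPC-like cells, and the 12 neurogenic markers to 13137 and 13443 CPM in neurogenic-like cells, against 558 and 579 CPM in RPC-like cells. The 12 ganglion cell markers summed to 16568 and 13100 CPM in postmitotic cells, against 128 and 109.9 CPM in RPC-like cells. Histone genes still separated clusters, so the clusters follow the cell cycle as well as the cell type.

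The region just before a gene's start is where E2F factors bind their targets, so promoters of some of the genes described below are shown first. RefSeq windows on GRCm38.p6, from 250 bases before to 50 after the start, were found for 35 of the 43 genes. The letters TTTGGCGC, TTTCCCGC, TTTGCCGC and TTTCGCGC, which fit the E2F consensus, were searched on both strands, and overlapping matches were counted separately. A match stood in a window of 13 of the 35 genes (37.1%), against 704 of 27025 genes of the table (2.61%). By window it was 13 of 40 (32.5%), against 347 of 9258 windows of like GC content (3.75%). Of 36 further replication genes, not among the 43, 11 held a match (30.6%), so the share was not particular to the 43. By role, matches were held by 7 of 10 licensing genes, 1 of 2 helicase activation genes, 2 of 4 polymerase genes, 1 of 5 clamp genes, 1 of 2 joining genes and 1 of 4 chromatin genes, and by 0 of 4 nucleotide supply genes and 0 of 3 single-strand binding genes. Mcm7 (chr5:138171834-138172133, minus strand) and Lig1 (chr7:13278576-13278875, plus strand), which lead their roles and have more than 1 start in the table, are given at the start whose window holds a match. Mcm6 (chr1:128359656-128359955, minus strand) was added after its values were seen, for its 3 matches. Pcna (chr2:132253131-132253430, minus strand), Dut (chr2:125247265-125247564, plus strand) and Rrm2 (chr12:24708004-24708303, plus strand), of which Rrm2 was also added afterwards for its level in neurogenic-like cells, hold none of these letters. The Mcm7, Lig1 and Dut windows shown lie inside the genes as placed by GENCODE, which start at 138172422, 13277283 and 125247190. For Mcm7 and Dut the bases before that start were not searched. For Lig1 another window (13276925-13277224) lies before it and holds no match. The windows of Prim1, Rpa3 and Slbp, which also lead their roles, hold none either and are not shown. Matches are in capitals.
Mcm7: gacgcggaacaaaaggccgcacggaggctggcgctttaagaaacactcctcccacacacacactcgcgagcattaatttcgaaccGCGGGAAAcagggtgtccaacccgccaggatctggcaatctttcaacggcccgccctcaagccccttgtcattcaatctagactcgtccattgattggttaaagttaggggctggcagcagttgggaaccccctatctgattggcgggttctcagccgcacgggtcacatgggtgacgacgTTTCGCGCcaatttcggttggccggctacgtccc
Lig1: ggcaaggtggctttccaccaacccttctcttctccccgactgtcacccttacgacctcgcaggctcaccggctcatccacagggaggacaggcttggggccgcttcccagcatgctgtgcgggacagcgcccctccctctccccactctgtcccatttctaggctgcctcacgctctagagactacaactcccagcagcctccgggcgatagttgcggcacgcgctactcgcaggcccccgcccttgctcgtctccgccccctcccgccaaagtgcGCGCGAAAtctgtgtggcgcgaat
Mcm6: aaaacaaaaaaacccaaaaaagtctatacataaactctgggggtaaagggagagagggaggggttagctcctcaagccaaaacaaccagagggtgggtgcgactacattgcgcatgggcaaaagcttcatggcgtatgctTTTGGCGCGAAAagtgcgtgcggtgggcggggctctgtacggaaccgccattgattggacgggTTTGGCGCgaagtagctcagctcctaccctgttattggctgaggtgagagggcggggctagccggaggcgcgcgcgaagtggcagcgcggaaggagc
Pcna: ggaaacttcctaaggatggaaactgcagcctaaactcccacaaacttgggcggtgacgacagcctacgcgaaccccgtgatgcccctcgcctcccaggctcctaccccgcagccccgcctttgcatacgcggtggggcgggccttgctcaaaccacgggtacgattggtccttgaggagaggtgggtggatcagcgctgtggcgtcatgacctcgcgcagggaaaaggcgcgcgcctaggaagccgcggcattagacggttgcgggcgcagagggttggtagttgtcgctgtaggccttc
Dut: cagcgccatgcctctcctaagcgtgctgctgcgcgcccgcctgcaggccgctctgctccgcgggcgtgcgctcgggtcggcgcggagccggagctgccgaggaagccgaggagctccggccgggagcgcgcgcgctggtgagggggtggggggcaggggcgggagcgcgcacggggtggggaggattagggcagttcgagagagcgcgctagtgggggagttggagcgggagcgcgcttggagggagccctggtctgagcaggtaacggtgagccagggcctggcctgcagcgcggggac
Rrm2: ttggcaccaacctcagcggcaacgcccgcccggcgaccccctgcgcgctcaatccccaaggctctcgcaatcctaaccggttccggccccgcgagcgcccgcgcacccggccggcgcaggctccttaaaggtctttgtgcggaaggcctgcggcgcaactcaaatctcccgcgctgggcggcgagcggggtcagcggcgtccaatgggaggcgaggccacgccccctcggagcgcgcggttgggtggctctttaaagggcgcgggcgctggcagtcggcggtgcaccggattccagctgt
The matches start at -165 and 17 in Mcm7, 27 in Lig1 and -110, -106 and -47 in Mcm6. Positions are counted from the RefSeq start of each window, and the first pair in Mcm6 overlaps. Both Mcm7 and Lig1 overlap exons of genes on the other strand (Ap4m1 and Cops6, and Zswim9), as do 13 of the 43 genes in all, and no source used here says if reads were counted by strand. A match is a run of letters and not a measured binding site.

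Postmitotic cells had less RNA of all 43 genes than RPC-like cells, in both libraries. The 43 genes together took 933 and 952 CPM in albino and pigmented postmitotic cells, against 4736 and 4583 CPM in RPC-like cells. For each of the 43 the 95% counting interval of the ratio lay below 1 in both libraries, where the same held for 39.8% of all genes with at least 20 UMIs in the albino and 38.9% in the pigmented library. No interval of the 43 lay above 1, where 35.7% and 35.9% of all genes had theirs. The median log2 ratio of the 43 was -2.71 in the albino and -2.61 in the pigmented library, while over all genes it was -0.07 and -0.04. All 43 were also more than 1.5-fold lower, against 30.5% and 28.7% of all genes. These intervals, like all intervals here, cover counting error only.

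Origin licensing had a lower median than any other role of more than 2 genes. Its 11 genes had a median log2 ratio of -3.50 in the albino and -3.48 in the pigmented library. Mcm7, a subunit of the helicase ring and the licensing gene with the highest level in RPC-like cells, was at 59.0 and 73.7 CPM in albino and pigmented postmitotic cells, against 247 and 268 CPM in RPC-like cells. Mcm3, another subunit of the same ring, was at 3.59 and 3.54 CPM, against 123 and 121 CPM, so the subunits of 1 complex were not lower by a like amount. Cdc6, which loads the ring, was left with 3 UMIs in 930 albino and 6 UMIs in 1019 pigmented postmitotic cells, against 310 and 529 UMIs in RPC-like cells. The ratio was 0.0105 (0.00216 to 0.0311) in the albino and 0.0231 (0.00844 to 0.0506) in the pigmented library. Mcm10 was grouped with licensing here, although it helps to activate the loaded ring and does not load it. It had 5 and 3 UMIs, against 303 and 438, for ratios of 0.0180 (0.0058 to 0.0424) and 0.0139 (0.00287 to 0.0410). Orc6, the smallest subunit of the origin recognition complex, stood at the other end with 76.1 and 74.4 CPM, against 157 and 152 CPM in RPC-like cells, and ratios of 0.484 (0.448 to 0.522) and 0.490 (0.454 to 0.527). Its exons overlap those of Vps35 on the other strand.

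The other roles followed in the same direction. The fork protection gene Tipin, a partner of Timeless, was at 36.1 and 40.5 CPM in albino and pigmented postmitotic cells, against 264 and 246 CPM in RPC-like cells. Ung, which removes uracil from DNA, had 11 and 13 UMIs, against 591 and 1015, and ratios of 0.0203 (0.0101 to 0.0366) and 0.0261 (0.0138 to 0.0448). Among the polymerases and primase (medians -2.81 and -2.93) Prim1, the catalytic primase subunit, was at 7.34 and 6.49 CPM, against 87.4 and 84.0 CPM. The helicase activation genes (medians -2.49 and -2.47) spread widely. Gins4 was at 32.3 and 33.6 CPM, against 61.6 and 62.5 CPM, with ratios of 0.524 (0.465 to 0.591) and 0.538 (0.481 to 0.602), whereas Cdc45 was at 1.12 and 1.52 CPM, against 26.9 and 22.6 CPM. Gins2 was at 6.54 and 7.76 CPM, against 93.2 and 89.6 CPM.

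The clamp and its loader had the smallest difference, with medians of -1.95 in the albino and -1.85 in the pigmented library. Pcna was at 50.1 and 51.1 CPM in albino and pigmented postmitotic cells, against 322 and 307 CPM in RPC-like cells. Rfc1, the large subunit of the loader, was at 54.2 and 49.99 CPM, against 130 and 145 CPM. Rpa3, the small subunit of the single-strand binding protein, was at 78.7 and 75.4 CPM, against 177 and 171 CPM, with ratios of 0.445 (0.413 to 0.480) and 0.441 (0.409 to 0.474), whereas Rpa2 of the same complex was at 9.65 and 8.94 CPM, against 121 and 118 CPM. Lig1, the ligase that joins Okazaki fragments, was at 26.0 and 26.5 CPM, against 168 and 174 CPM. Dut, which keeps dUTP out of DNA, was at 136 and 119.9 CPM, against 578 and 544 CPM. Rrm2, the regulated subunit of ribonucleotide reductase, was at 4.31 and 6.49 CPM, against 179 and 159 CPM. Slbp, which binds the stem-loop of histone mRNAs, was at 41.6 and 45.7 CPM, against 165 and 163 CPM.

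**Figure D1:**
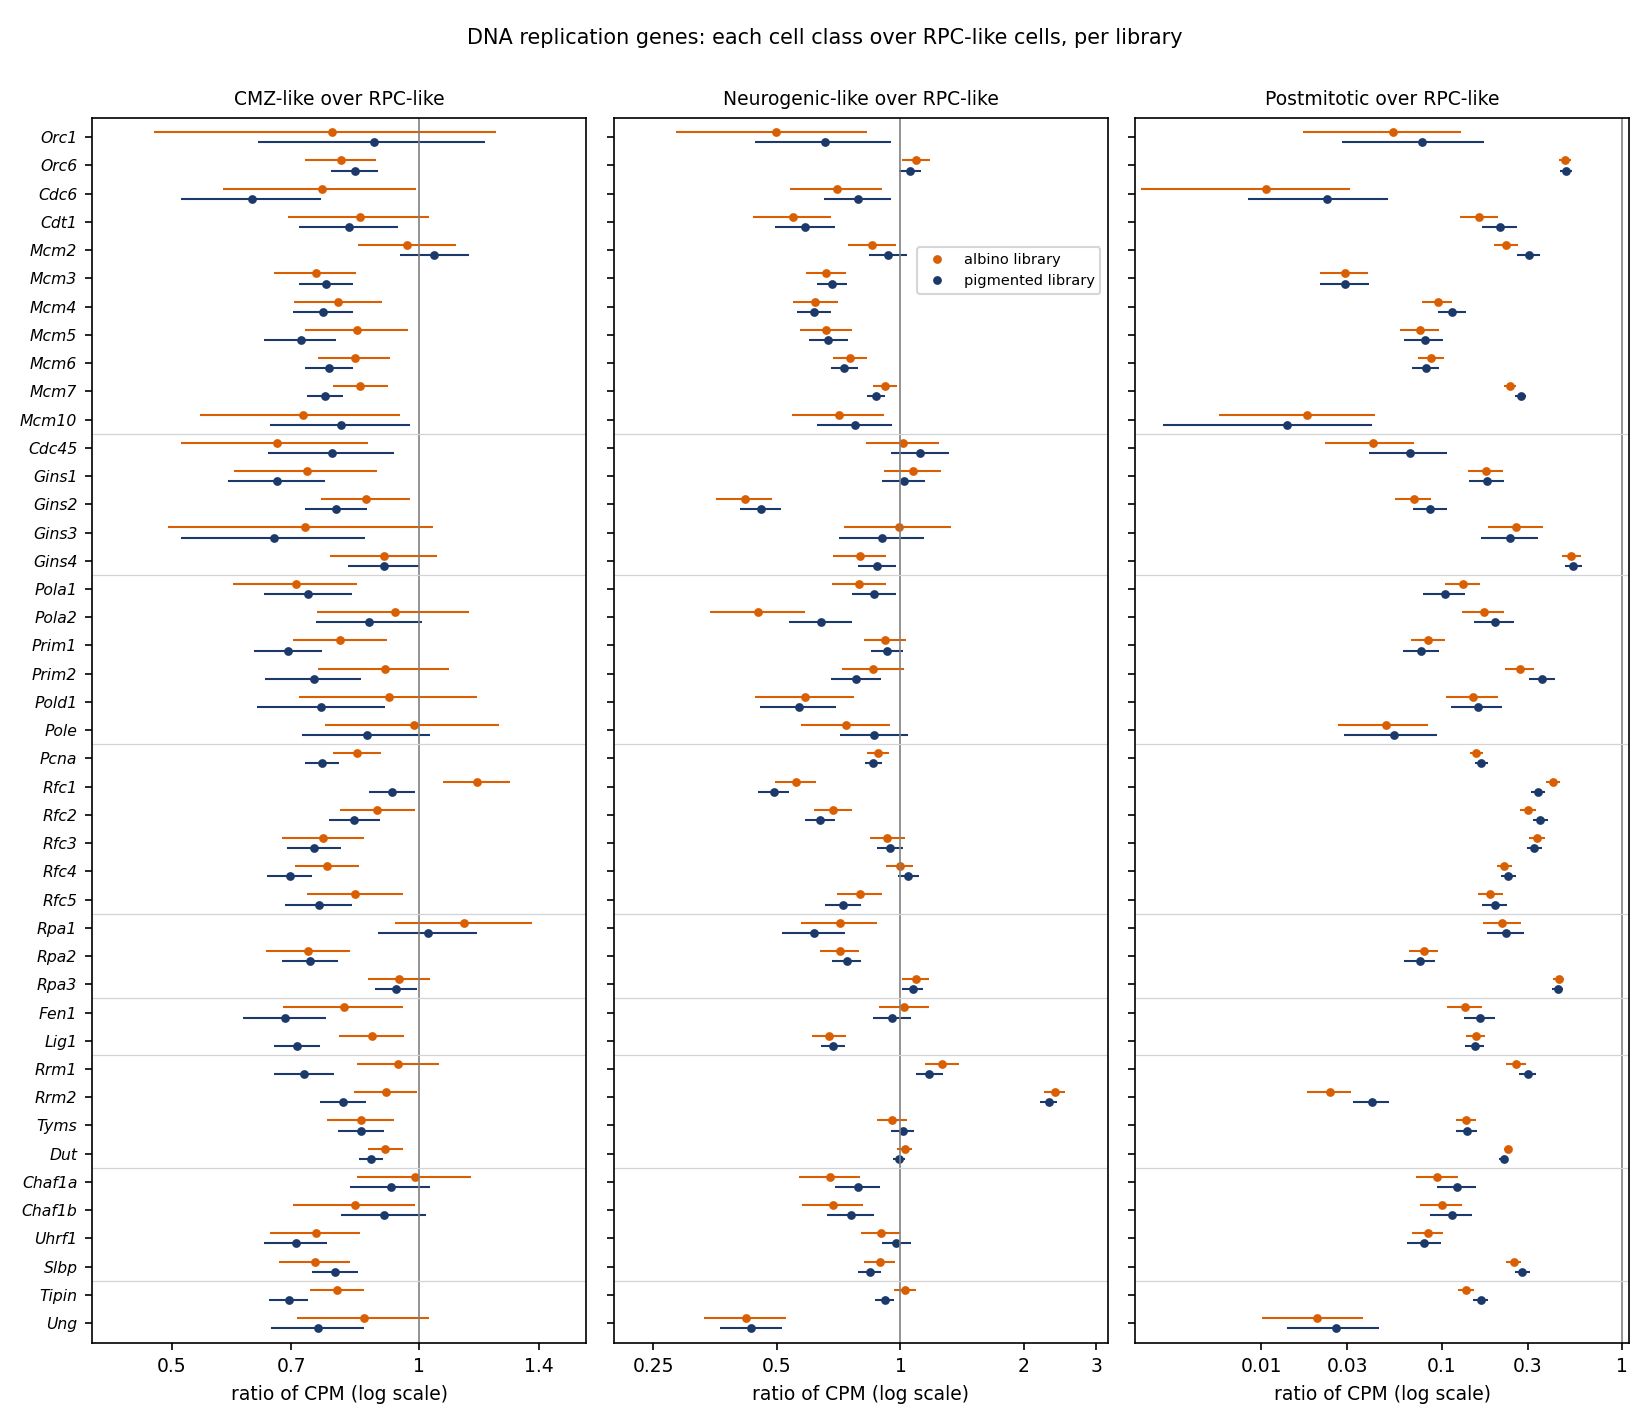
Ratios of CMZ-like, neurogenic-like and postmitotic cells over RPC-like cells for the 43 genes, on a log axis, with 95% counting intervals, albino in orange and pigmented in dark blue, genes grouped by role. In the postmitotic panel every gene lies below 1 in both libraries, between 0.0105 and 0.538, and in the neurogenic panel Rrm2 stands apart at 2.38 and 2.30.

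The RNA that remained was not spread over the genes as it was in RPC-like cells. The postmitotic over RPC-like ratios ranged from 0.0105 for Cdc6 to 0.524 for Gins4 in the albino and from 0.0139 for Mcm10 to 0.538 for Gins4 in the pigmented library. With every cell thinned to 5800 UMIs, which left out 917 shallower cells, 35.4% of albino and 33.5% of pigmented postmitotic cells had an Orc6 UMI, against 59.2% and 57.1% of RPC-like cells (before thinning, 58.1% and 54.8%, against 73.6% and 73.4%). An Rrm2 UMI was found in 1.76% and 3.57% of postmitotic cells, against 55.3% and 51.3% of RPC-like cells. For Ung the shares were 0.469% and 0.758%, against 21.8% and 20.6%. The same split held in cells like ganglion cells and in cells like photoreceptors, the larger kinds of neuron named. Values of the smaller group like amacrine or horizontal cells are not given here. In cells like ganglion cells Orc6 had ratios over RPC-like cells of 0.508 and 0.527 and Mcm3 of 0.0190 and 0.0104, and in cells like photoreceptors Orc6 had ratios of 0.391 and 0.406 and Mcm3 of 0.0951 and 0.0796. Mcm7 was at 102 and 108 CPM in the photoreceptor-like cells and at 49.9 and 55.0 CPM in the ganglion cell-like cells, while Pcna was at 45.5 and 53.8 CPM, against 50.6 and 50.2 CPM.

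Neurogenic-like cells had somewhat less RNA of most replication genes than RPC-like cells, with 1 large exception. The sum was 4378 and 4143 CPM in albino and pigmented neurogenic-like cells, against 4736 and 4583 CPM in RPC-like cells, and the median log2 ratio was -0.33 and -0.25 (over all genes -0.09 and -0.10). The interval lay below 1 for 28 of the 43 genes in the albino and 27 in the pigmented library, and above 1 for 4 and 3 (Rrm2, Rrm1 and Rpa3 in both, and Orc6 in the albino library). Of all genes, 29.8% and 34.1% lay below 1 and 21.8% and 22.6% above. Most of the licensing genes, 10 and 9 of 11, lay below 1, with medians of -0.50 and -0.45. Of the 4 nucleotide supply genes, Rrm1 and Rrm2 lay above 1 in both libraries and none below.

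Rrm2 was at 426 and 366 CPM in albino and pigmented neurogenic-like cells, against 179 and 159 CPM in RPC-like cells. Its ratio was 2.38 (2.24 to 2.52) in the albino and 2.30 (2.19 to 2.41) in the pigmented library, from 2061 and 3072 UMIs, against 2450 and 3839. At 5800 UMIs per cell, 66.3% and 65.6% of neurogenic-like cells had an Rrm2 UMI, against 55.3% and 51.3% of RPC-like cells. Rrm1, the large subunit of the same enzyme, was higher by less, at 129 and 120.0 CPM, against 102 and 102 CPM, with ratios of 1.26 (1.15 to 1.39) and 1.18 (1.09 to 1.27). Rpa3 followed with ratios of 1.09 (1.01 to 1.18) and 1.07 (1.01 to 1.14). Tyms, which makes thymidylate, and Dut had ratios close to 1, of 0.953 and 1.01 and of 1.02 and 0.990.

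The lowest ratios belonged to Ung, Gins2 and Rfc1. Ung was at 18.2 and 18.2 CPM in albino and pigmented neurogenic-like cells, against 43.2 and 42.0 CPM in RPC-like cells, for ratios of 0.421 (0.332 to 0.527) and 0.433 (0.363 to 0.514). Gins2 was at 38.9 and 40.9 CPM, against 93.2 and 89.6 CPM, for ratios of 0.417 (0.356 to 0.487) and 0.457 (0.407 to 0.512). The other GINS genes were not lower by as much, since Gins1 had ratios of 1.07 (0.913 to 1.25) and 1.02 (0.901 to 1.15) and Gins3 of 0.989 (0.729 to 1.33) and 0.903 (0.708 to 1.14). Rfc1 was at 72.3 and 71.4 CPM, against 130 and 145 CPM, for ratios of 0.555 (0.494 to 0.623) and 0.491 (0.450 to 0.536), while Rfc4 of the same loader had ratios of 0.997 (0.924 to 1.07) and 1.04 (0.986 to 1.11). Genes of the cell cycle moved beside these ratios. All 22 G2 and mitosis genes had higher values in neurogenic-like cells of both libraries (medians 0.85 and 0.60), and the part of cell cycle stage in the ratios was not tested apart from the comparison of histone-high cells given below.

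The neurogenic class was a mixture of clusters with different replication RNA. Cluster 7, led by Neurog2, Sstr2 and Mybl1, held 40.2% of albino and 30.7% of pigmented neurogenic-like cells and had 6393 and 6325 CPM of the 43 genes, with Rrm2 at 712 and 672 CPM. Cluster 13, led by Cck, Gadd45g and Neurog2, had 5021 and 5264 CPM, with Rrm2 at 301 and 307 CPM. Cluster 17, led by Onecut1, Pcdh17 and Gm16551, had 2145 and 2179 CPM in all and kept Rrm2 at 263 and 227 CPM. Cluster 9, led by Gal and Insm2 and named by a small margin, had 1771 and 1798 CPM, with Rrm2 at 124 and 112 CPM. These clusters also differed in cell cycle RNA. Histone RNA was at 13532 and 13921 CPM in cluster 7, 1258 and 1191 CPM in cluster 13, 1206 and 1338 CPM in cluster 17 and 1063 and 1021 CPM in cluster 9. Histone genes and Rrm2 were among the top 10 genes of cluster 7. G2 and mitosis RNA was highest in cluster 17, at 10423 and 9507 CPM. Without cluster 9, a choice made after seeing the data, the median log2 ratio of the 43 genes over RPC-like cells was -0.10 in the albino and 0.01 in the pigmented library. Without cluster 17 in its place it was -0.18 and -0.11, so leaving out either of the low clusters brought the median nearer to 0. Cluster 4 (233 albino and 381 pigmented cells) is outside the class. It scored best as neurogenic but led the next class by only 0.02, so it stayed unnamed. It had Atoh7 at 5011 and 4874 CPM and 1040 and 1029 CPM of the 43 genes. The ratios given for neurogenic-like cells do not include it, and medians with it were not computed. Rrm2 was higher under every alternative tried, with log2 ratios between 0.82 and 1.54 in the albino and between 0.76 and 1.53 in the pigmented library.

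**Figure D2:**
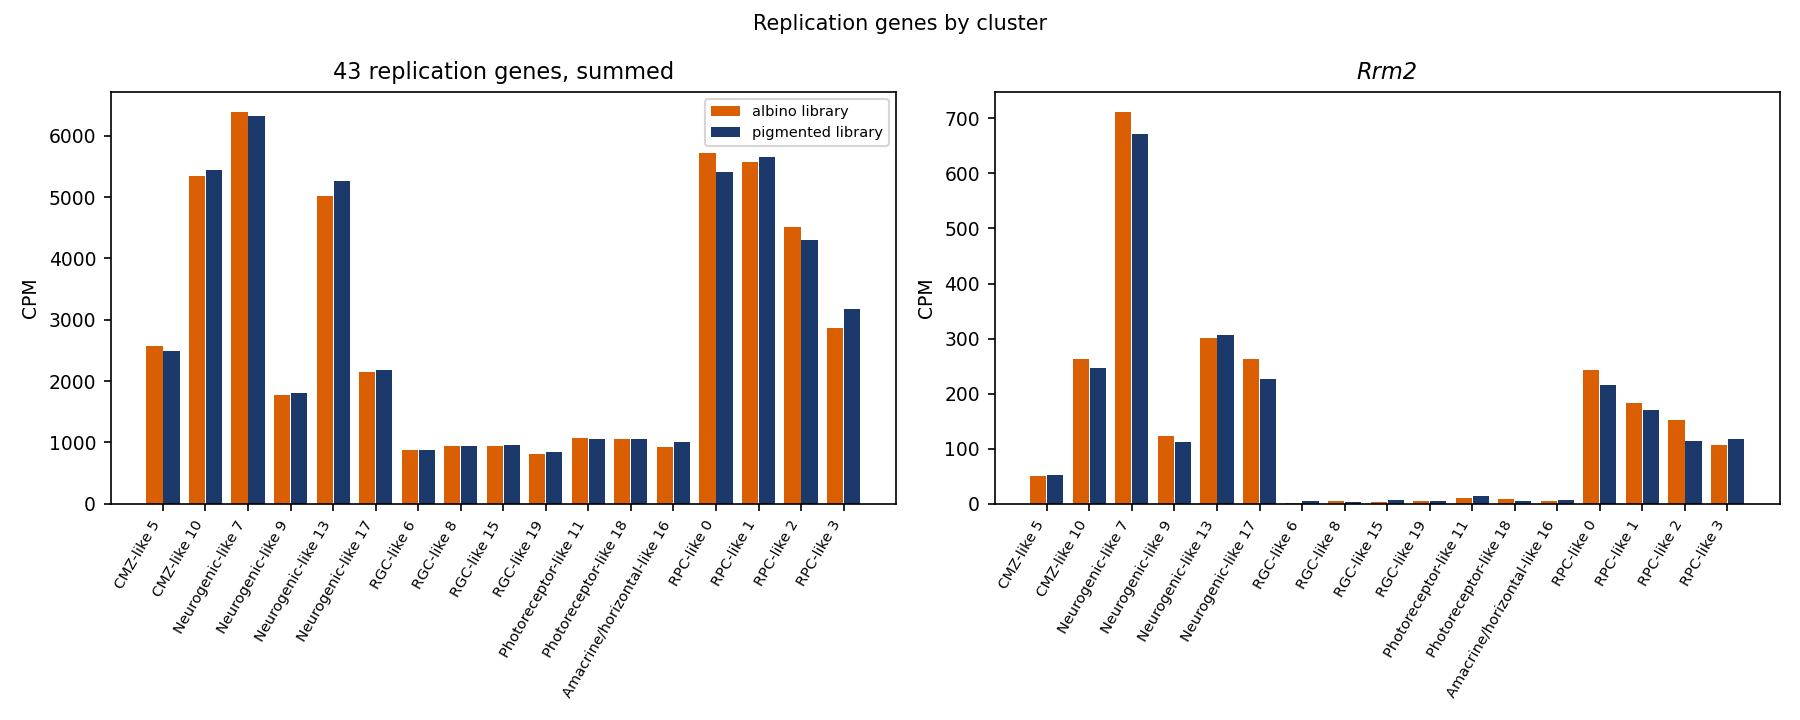
Summed CPM of the 43 genes in each cluster, albino in orange and pigmented in dark blue, for the clusters of the compared classes (left), and CPM of Rrm2 alone (right). The neurogenic-like clusters run from 1771 CPM in albino cells of cluster 9 to 6393 CPM in albino cells of cluster 7, and the RPC-like clusters from 2864 to 5723 CPM. Rrm2 is highest in cluster 7, at 712 and 672 CPM.

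CMZ-like cells also had less replication RNA than RPC-like cells, by an amount that depended on how the classes were built. The sum was 4048 and 3646 CPM in albino and pigmented CMZ-like cells, against 4736 and 4583 CPM in RPC-like cells, and the median log2 ratio was -0.25 and -0.37 (over all genes -0.02 and -0.07). Under the 14 alternatives the median lay between -0.80 and -0.21 in the albino and between -0.76 and -0.32 in the pigmented library, and most of them were further from 0 than the values given. The interval lay below 1 for 28 of the 43 genes in the albino library, where 15% of all genes did, and for 35 in the pigmented library, where 27% did. It lay above 1 for 1 gene (Rfc1) in the albino and 0 in the pigmented library, against 11.8% and 15.7% of all genes. The medians of all 9 roles were below 0 in both libraries. They lay between -0.43 for helicase activation and -0.08 for single-strand binding in the albino library, and between -0.51 for Okazaki fragment joining and -0.09 for single-strand binding in the pigmented one.

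At the low end, Gins1, a GINS subunit, was at 31.0 and 28.5 CPM in albino and pigmented CMZ-like cells, against 42.4 and 42.4 CPM in RPC-like cells. Gins3 had ratios of 0.726 (0.495 to 1.04) and 0.667 (0.513 to 0.859). Pola1, the catalytic subunit of DNA polymerase alpha, was at 40.4 and 35.0 CPM, against 57.1 and 47.7 CPM, for ratios of 0.708 (0.593 to 0.841) and 0.734 (0.648 to 0.829). At the high end, Rpa1, the large subunit of the single-strand binding protein, had ratios of 1.14 (0.935 to 1.38) and 1.03 (0.893 to 1.18) and Mcm2 of 0.969 (0.842 to 1.11) and 1.04 (0.948 to 1.15), so neither differed from 1 beyond counting error. Rfc1 was at 153 and 135 CPM, against 130 and 145 CPM, for ratios of 1.18 (1.07 to 1.29) in the albino and 0.929 (0.871 to 0.990) in the pigmented library. A single albino CMZ-like cell held 9.95% of the Rfc1 UMIs of its class, and the albino log2 ratio turned to -0.23 with cell cycle genes left in the clustering and to -0.10 with classes from marker scores. Of the role leaders, Pcna was at 271 and 234 CPM, against 322 and 307 CPM, Tipin at 211 and 171 CPM, against 264 and 246 CPM, and Dut at 527 and 476 CPM, against 578 and 544 CPM.

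The CMZ class was made of a cluster low and a cluster high in replication RNA. Cluster 5, led by Aldh1a1, Sgk1 and Gja1, held 57.3% of albino and 66.3% of pigmented CMZ-like cells and had 2578 and 2498 CPM of the 43 genes. Cluster 10, led by Wfdc1, Gm26737 and Aldh1a1, had 5340 and 5438 CPM, above the RPC-like class as a whole. Histone RNA moved with it, at 1023 and 1010 CPM in cluster 5 and 7179 and 7628 CPM in cluster 10. All 22 G2 and mitosis genes were lower in CMZ-like than in RPC-like cells of both libraries, with medians of -0.72 and -1.17, and their part in the class difference was not tested.

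Per cell, the classes overlapped widely except for the neurons. At 5800 UMIs per cell, albino and pigmented CMZ-like cells had medians of 19 and 17 UMIs from the 43 genes, neurogenic-like cells 20 and 18, postmitotic cells 5 and 5 and RPC-like cells 27 and 25. The neurogenic-like cells had the widest range, with 10th percentiles of 6 and 6 UMIs and 90th percentiles of 55.8 and 51, against 11 and 12 and 49 and 47 in RPC-like cells. At least 20 such UMIs were found in 49.4% and 43.3% of CMZ-like, 50.5% and 44.9% of neurogenic-like and 68.7% and 66.3% of RPC-like cells. In postmitotic cells the share was 0 of 852 albino cells, which allows up to 0.352%, and 0.216% of pigmented cells. A cell of the median kind had UMIs from 13 and 12 of the 43 genes in the CMZ-like, 13 and 12 in the neurogenic-like, 5 and 5 in the postmitotic and 16 and 16 in the RPC-like class.

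**Figure D3:**
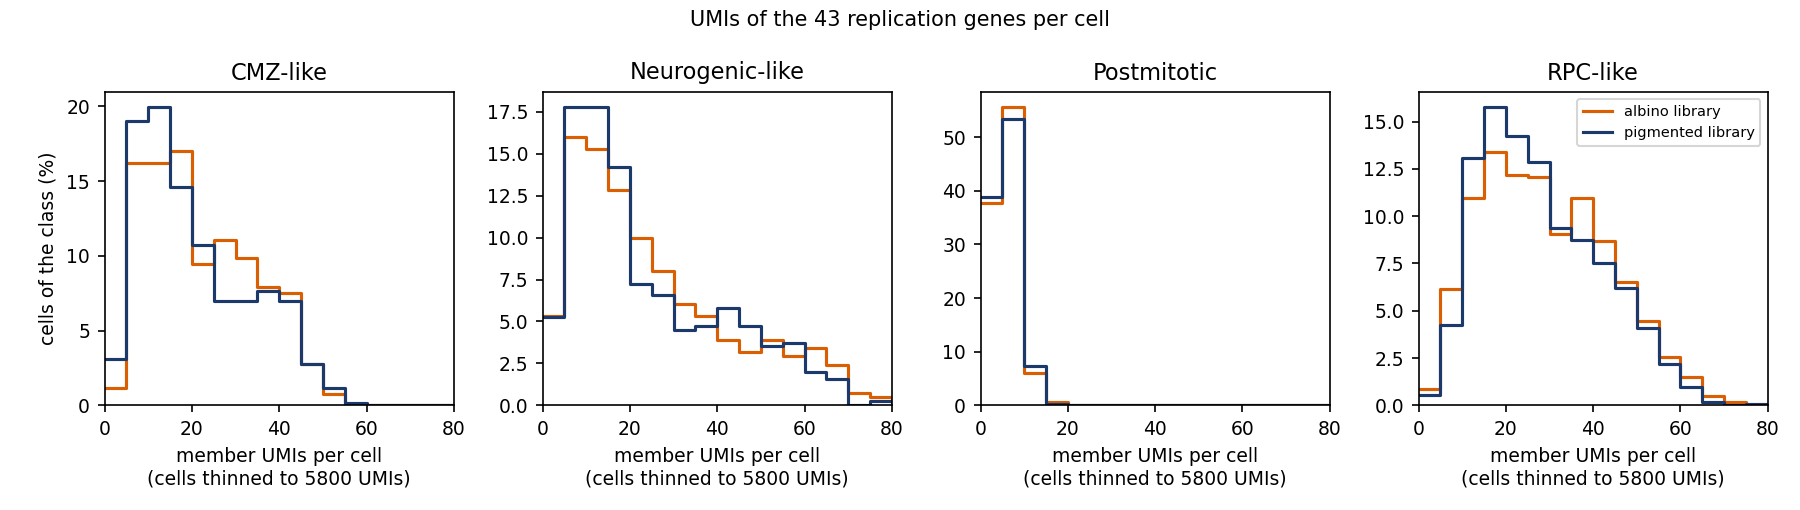
Share of cells (in percent) by the number of UMIs from the 43 genes per cell at 5800 UMIs, in 1 panel per class, albino in orange and pigmented in dark blue. Postmitotic cells pile up around 5 UMIs, while the other classes spread from under 10 to over 40 UMIs.

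Among RPC-like cells the replication genes could be set against 2 sets of genes they do not share. The sets were histone genes picked by symbol (Hist1h to Hist4h), many of them made in S phase, and a list of G2 and mitosis genes. The histone set cannot be taken as S phase RNA alone. It took 1717 and 1596 CPM in albino and pigmented postmitotic cells, against 1235 and 1124 CPM in RPC-like cluster 1 and 1266 and 991 CPM in RPC-like cluster 2. Cells in the top 25% for histone RNA alone (histone-high, 191 albino and 346 pigmented cells), for mitosis RNA alone (mitosis-high, 191 and 346) and for none of the lists (705 and 1322) were compared. Such bins are ranges and not cell types, and 63 and 99 cells lay within 10% of the histone cut. The 43 genes took 6760 and 6838 CPM in albino and pigmented histone-high cells and 2732 and 2925 CPM in mitosis-high cells, against 5024 and 4704 CPM in cells high for neither. Median UMIs per cell were 10481 and 9731, 13265 and 12662, and 9543 and 9001 in the same order.

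Histone-high cells had more RNA of most genes that act at the fork, while the helicase ring was near even. The interval over cells high for neither lay above 1 for 27 of the 43 genes in the albino library, where 11.3% of all genes did, and for 33 in the pigmented library, where 17.9% did. It lay below 1 for 3 in each (Ung and Mcm2 in both, Mcm4 in the albino and Orc1 in the pigmented library), where 10.2% and 13.4% of all genes did. Tyms was at 289 and 309 CPM in albino and pigmented histone-high cells, against 148 and 121 CPM, Pcna at 542 and 568 CPM, against 350 and 317 CPM, and Lig1 at 284 and 336 CPM, against 179 and 175 CPM. Pola1 had ratios of 1.95 (1.64 to 2.31) and 2.12 (1.84 to 2.44), Prim2 of 2.02 (1.65 to 2.47) and 2.14 (1.83 to 2.495) and Rrm2 of 1.80 (1.63 to 1.97) and 2.06 (1.91 to 2.22). The ring genes Mcm2 to Mcm7 had ratios up to 1.005 in the albino library and 1.096 in the pigmented library, with Mcm2 the lowest of them at 0.823 (0.687 to 0.982) and 0.804 (0.691 to 0.932). Mcm10 had ratios of 1.05 (0.763 to 1.42) and 2.13 (1.70 to 2.67). Ung was at 37.1 and 32.6 CPM, against 66.3 and 66.4 CPM, lower where the polymerase genes were higher.

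Mitosis-high cells had less of nearly all of them. The interval lay below 1 for 41 genes in the albino and 35 in the pigmented library, where 13.7% and 16.1% of all genes did, and above 1 for 0 and 1 (Rfc5), where 11% and 12.6% did. Ung had the lowest ratios, of 0.0536 and 0.0828, at 3.55 and 5.50 CPM in albino and pigmented mitosis-high cells, against 66.3 and 66.4 CPM. Among roles of more than 2 genes licensing had the lowest median ratio, 0.339 and 0.402, with genes up to 0.613 and 0.699 for Mcm7. In it Cdc6 was at 3.195 and 4.91 CPM in albino and pigmented mitosis-high cells, against 31.2 and 28.3 CPM, and Mcm6 at 34.8 and 52.0 CPM, against 189 and 187 CPM. Chaf1b, a subunit of the chromatin assembly factor, had ratios of 0.175 and 0.210. Rfc5, another loader subunit, kept ratios of 1.001 (0.848 to 1.18) and 1.18 (1.05 to 1.33), and Rpa3 of 0.906 (0.811 to 1.01) and 0.985 (0.907 to 1.07). In postmitotic cells, which have little mitosis RNA, the Rpa3 ratios over RPC-like cells were 0.445 and 0.441, as given above.

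**Figure D4:**
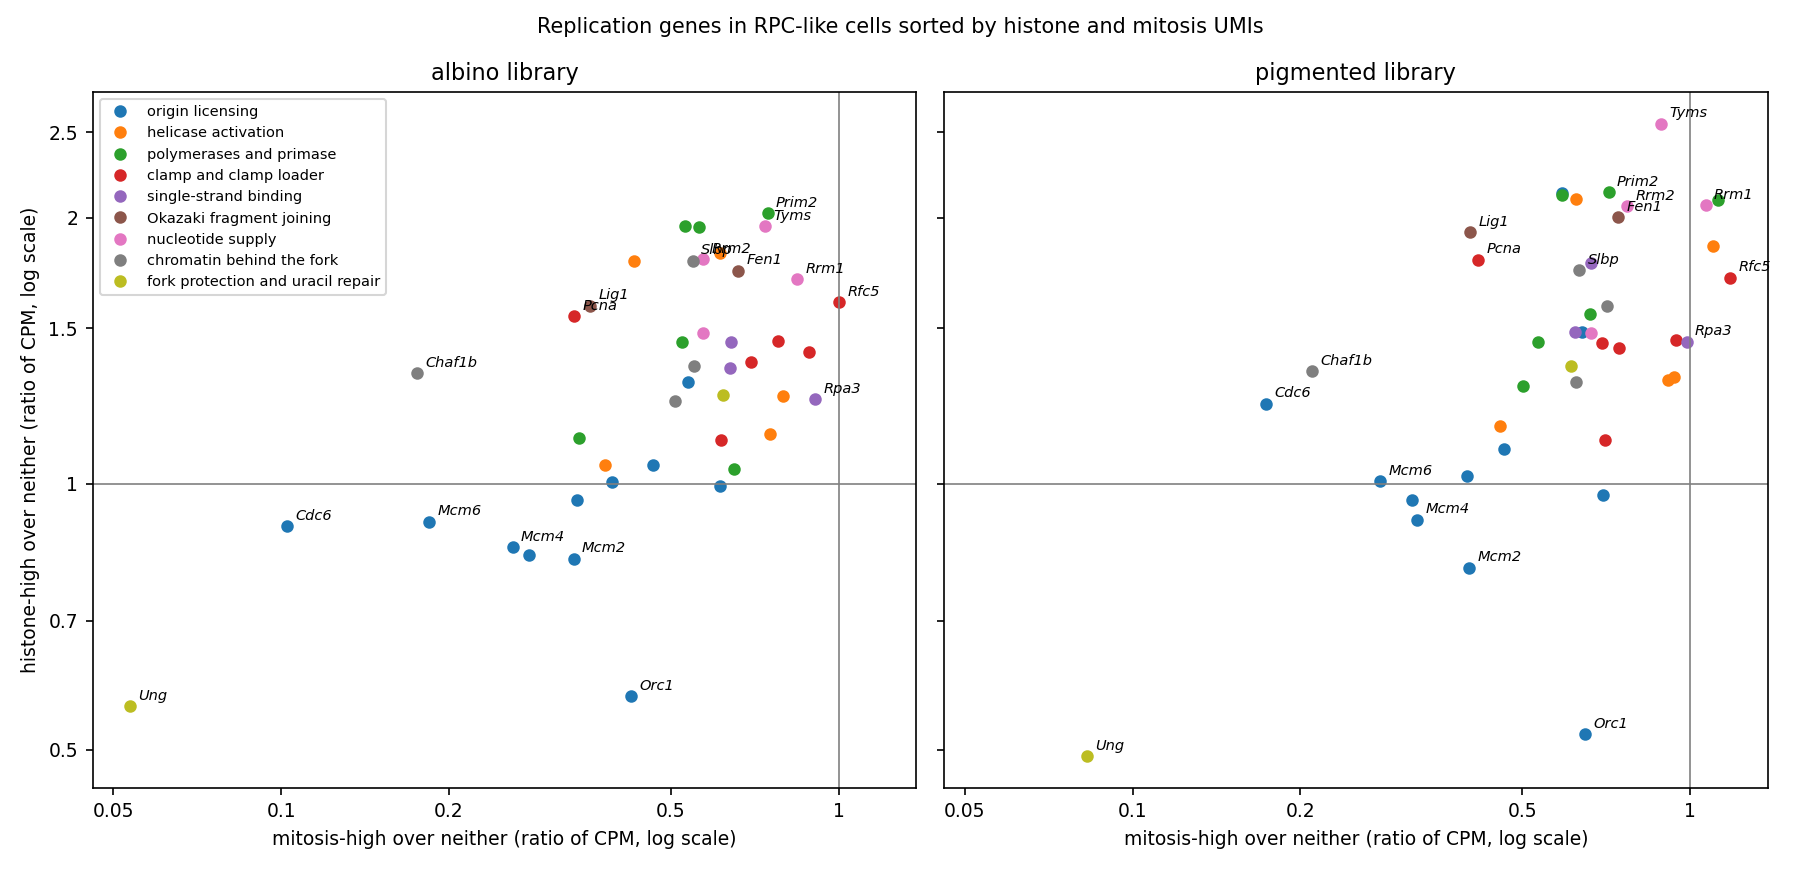
Ratios of mitosis-high (horizontal) and histone-high (vertical) RPC-like cells over those high for neither, on log axes, in 1 panel per library. Each point is 1 of the 43 genes, coloured by role, without intervals. Tyms, Prim2, Pola1 and Pole lie near 2 in histone-high cells, Ung lies below 1 there at 0.560 and 0.492, and in mitosis-high cells nearly all genes lie below 1.

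For the next comparison histone-high cells were kept whether or not they were also high for mitosis RNA, which gave 299 albino and 556 pigmented RPC-like cells. The same histone cut was then applied to the other classes. It took 53 of 267 albino (19.9%) and 103 of 638 pigmented (16.1%) CMZ-like cells, 158 of 440 (35.9%) and 224 of 818 (27.4%) neurogenic-like cells and 0 of 930 and 0 of 1019 postmitotic cells, which allows up to 0.323% and 0.294%. Among these cells the 43 genes took 5042 and 5495 CPM in CMZ-like and 6553 and 6386 CPM in neurogenic-like cells, against 5793 and 5733 CPM in RPC-like cells. Rrm2 in neurogenic-like histone-high cells was at 745 and 699 CPM, against 253 and 229.7 CPM in RPC-like ones, with ratios of 2.94 (2.70 to 3.21) and 3.04 (2.83 to 3.27), so its difference was as large within these cells. Orc6 had ratios of 1.43 (1.27 to 1.61) and 1.27 (1.15 to 1.4004), Rpa3 of 1.36 (1.21 to 1.54) and 1.38 (1.26 to 1.52) and Dut of 1.26 (1.19 to 1.34) and 1.35 (1.28 to 1.42). Gins2, with 0.482 (0.372 to 0.618) and 0.559 (0.459 to 0.678), and Rfc1, with 0.590 (0.493 to 0.704) and 0.478 (0.413 to 0.552), were lower here too.

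For the 43 genes together the histone-high neurogenic-like cells had median log2 ratios of 0.00 and -0.05 (over all genes -0.09 and -0.14). Of the 42 and 43 genes with enough UMIs, 10 and 10 lay above 1 and 10 and 13 below, where 16.6% and 16.1% of all genes lay above and 22.4% and 27.1% below. G2 and mitosis RNA still differed within the cut, at 8601 and 8441 CPM, against 4989 and 5546 CPM, and its part was not tested. In histone-high CMZ-like cells 0 and 2 genes lay above 1 and 10 and 9 below, where 6.64% and 8.53% of all genes lay above and 8.57% and 15.1% below. The medians were -0.21 and -0.04 (over all genes -0.002 and -0.07). Slbp had ratios of 0.585 (0.479 to 0.709) and 0.794 (0.701 to 0.898) there, and Pola1 of 0.739 (0.545 to 0.986) and 0.732 (0.584 to 0.911).

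Between the libraries the replication genes differed little. In CMZ-like cells 39 of 43 had a higher value in the albino than in the pigmented library, against 6382 of 11929 over all genes. The median log2 ratio was 0.18 (over all genes 0.02). The interval lay above 1 for 10 genes and below 1 for 0, where 6.63% and 5.32% of all genes did so. Rrm1 was at 96.4 CPM in the albino and 74.0 CPM in the pigmented library, a ratio of 1.30 (1.15 to 1.48), and Prim2 at 38.1 and 29.9 CPM, a ratio of 1.28 (1.04 to 1.56). Pole, the leading-strand polymerase, had a ratio of 1.29 (0.981 to 1.67). At the other end lay Slbp at 0.960 (0.862 to 1.07), Mcm3 at 0.987 (0.871 to 1.12) and Gins4 at 0.988 (0.841 to 1.16). No licensing gene was among the 10. In cells with Xist and no Y-linked UMI (263 albino and 228 pigmented CMZ-like cells) 19 genes lay above 1 and 0 below, where 7.71% and 5.51% of all genes did so, and 4 of the 19 were licensing genes (Cdt1, Mcm5, Mcm6 and Mcm7). The share of cluster 10, which is rich in replication RNA, was 42.7% of albino and 33.7% of pigmented CMZ-like cells, and within clusters 5 and 10 the sums were 2578 and 5340 CPM in albino cells and 2498 and 5438 CPM in pigmented cells. Of the 22 G2 and mitosis genes 21 were also higher in albino CMZ-like cells (median 0.35). With cell cycle genes left in the clustering the median of the 43 genes was 0.01.

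In the other classes the medians were smaller. In RPC-like cells 35 of 43 genes were higher in the albino library, against 5506 of 13422 over all genes. The median was 0.06 (over all genes -0.03), with 12 intervals above 1 and 2 below (Rfc1 and Mcm7), where 3.88% and 10.4% of all genes did so. Mcm10 had a ratio of 1.22 (1.05 to 1.42) and Cdc45 of 1.19 (1.04 to 1.36), while Rfc1, at 130 CPM in the albino and 145 CPM in the pigmented library, had 0.896 (0.846 to 0.949), Mcm7 0.919 (0.882 to 0.958) and Fen1, the flap nuclease, 0.957 (0.874 to 1.05). In RPC-like cells with Xist and no Y-linked UMI (1180 albino and 693 pigmented cells) 2 intervals lay above 1 (Mcm2 and Pola1) and 2 below (Rfc1 and Mcm7), where 3.94% and 9.28% of all genes did so. Mcm10 was then at 1.097 (0.899 to 1.34) and Cdc45 at 1.06 (0.888 to 1.27), so neither differed from 1 beyond counting error.

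In neurogenic-like cells the median was 0.04, with 4 intervals above 1 (Tipin, Rrm2, Dut and Pcna) and 1 below (Pola2), where 4.3% and 6.56% of all genes did so. Tipin was at 271 CPM in the albino and 225 CPM in the pigmented library, a ratio of 1.21 (1.12 to 1.29), and Rrm2 at 426 and 366 CPM, a ratio of 1.17 (1.102 to 1.23). Rpa1 had 1.22 (0.951 to 1.57), Gins4 0.895 (0.762 to 1.05), Orc1 0.868 (0.464 to 1.57) and Pola2, the regulatory subunit of polymerase alpha, 0.741 (0.548 to 0.993). In neurogenic-like cells with Xist and no Y-linked UMI 5 lay above 1 (Prim2, Pcna, Rrm1, Dut and Tipin) and 0 below, where 4.44% and 5.41% of all genes did so, and Rrm2 and Pola2 were no longer among them. In postmitotic cells 40 genes had at least 20 UMIs (Cdc6, Mcm10 and Orc1 did not), with a median of -0.03, 2 intervals above 1 (Pola1 and Dut) and 4 below (Rrm2, Prim2, Mcm7 and Rfc2), where 9.17% and 15.9% of all genes did so. Pola1 had 1.51 (1.08 to 2.12) there, Gins3 1.14 (0.708 to 1.83), Prim1 1.13 (0.826 to 1.55), Rrm2 0.663 (0.460 to 0.952), Prim2 0.787 (0.626 to 0.988) and Fen1 0.791 (0.593 to 1.05). In postmitotic cells with Xist and no Y-linked UMI 1 lay above 1 (Dut) and 3 below (Mcm7, Prim2 and Rfc2), where 6.4% and 10.5% of all genes did so, and Pola1 was at 1.57 (0.951 to 2.72). With doublet calls kept, 0 of the 43 lay above 1 and 32 below in postmitotic cells, with a median of -0.45. The share of all genes was not computed for that setting, so this count cannot be set against it.

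Pola1 (chrX:93304767-93632155, minus strand, GRCm38) is the X-linked member of the 43, and the pools differ in sex. It was at 57.1 CPM in albino and 47.7 CPM in pigmented RPC-like cells, a ratio of 1.20 (1.09 to 1.31). Among cells with Xist and no Y-linked UMI the levels were 57.4 and 50.1 CPM, a ratio of 1.15 (1.01 to 1.30), from 777 albino and 377 pigmented UMIs. In CMZ-like cells its ratio was 1.15 (0.949 to 1.398) in all cells and 1.51 (1.16 to 1.98) in cells so chosen. Of the genes that are not X-linked, the highest in those CMZ-like cells were Pold1 at 1.55 (1.07 to 2.28) and Rrm2 at 1.53 (1.34 to 1.75). Rrm1 at 1.49 (1.26 to 1.77) and Pola2 at 1.49 (1.08 to 2.05) came next. Others lay near 1, such as Mcm3 at 1.003 (0.860 to 1.17) and Gins4 at 0.987 (0.810 to 1.20). The part of X-linkage in the Pola1 ratios was not tested.

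**Figure D5:**
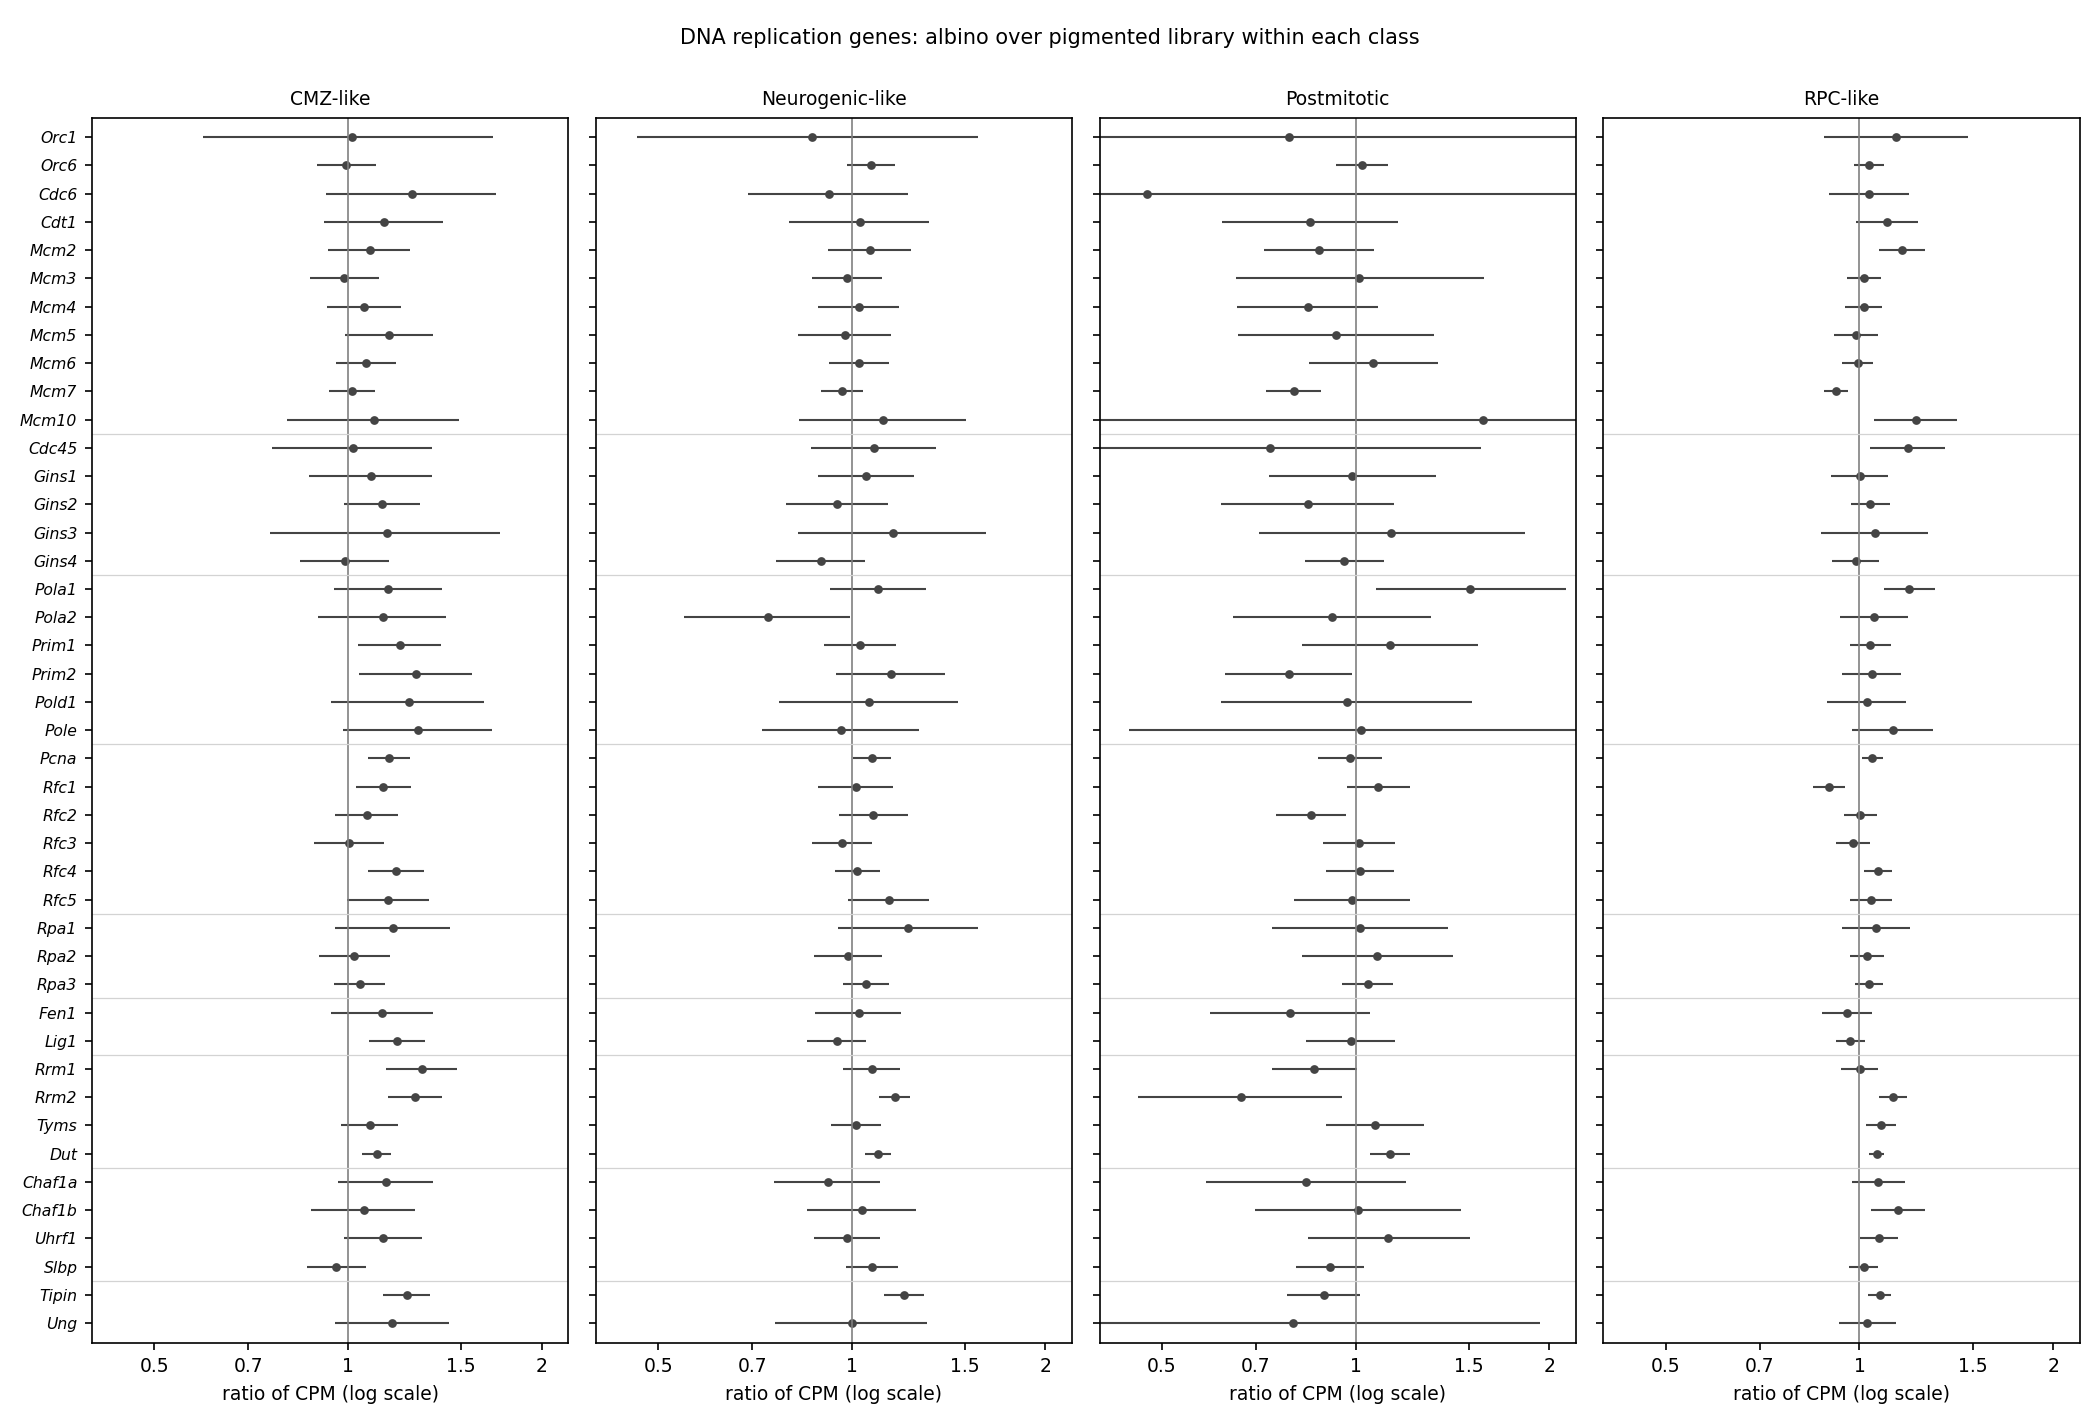
Albino over pigmented ratios of the 43 genes in CMZ-like, neurogenic-like, postmitotic and RPC-like cells, on a log axis with 95% counting intervals, cut where they pass the edge of the axis. In CMZ-like cells 39 of 43 lie above 1, up to 1.30 for Rrm1, and in RPC-like cells Rfc1 and Mcm7 lie below 1 at 0.896 and 0.919.

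Other lists put these values beside the rest of the cell cycle. In postmitotic over RPC-like cells, 39 and 38 of 43 further replication genes lay below 1 in the albino and pigmented library (medians -1.75 and -1.71), as did 14 and 14 of 15 G1/S regulators (-3.39 and -3.02) and 22 and 22 of 22 G2 and mitosis genes (-5.29 and -5.26). Of 9 cell cycle exit genes 6 lay above 1 in both, and of 10 housekeeping genes 7 lay below (medians -0.42 and -0.39). Of all genes 39.8% and 38.9% lay below 1 there and 35.7% and 35.9% above. In neurogenic-like cells 9 of the 43 further replication genes lay above 1 and 21 and 22 below, where 21.8% and 22.6% of all genes lay above and 29.8% and 34.1% below. In CMZ-like cells 21 and 31 of them lay below, where 15% and 27% of all genes did. Promoters with and without an E2F match were also set side by side. The 13 genes with a match had median log2 ratios in postmitotic over RPC-like cells of -2.92 in the albino and -3.24 in the pigmented library, the 22 without of -2.60 and -2.46. In neurogenic-like over RPC-like cells the medians were -0.50 and -0.45 with a match and -0.17 and -0.16 without, and in CMZ-like over RPC-like cells -0.30 and -0.42 with and -0.24 and -0.31 without. The ranges overlapped in all 3 comparisons, and Rrm2, Dut, Pcna and Ung are all among the genes without these letters in the windows searched. Of the 13 genes with a match 7 are licensing genes, so match and role cannot be told apart in these medians.

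Across RPC-like cells, the genes whose values went most closely with the summed share of the 43 were Pclaf, which binds Pcna (Pearson r of 0.589 over 1195 albino and 0.536 over 2224 pigmented cells), Ccne2, a cyclin of S phase entry (0.565 and 0.523), and Gmnn, the inhibitor of Cdt1 (0.560 and 0.492). Hells, Atad2, Hat1, Clspn, Dtl and Fam111a were also among the 10 highest of 7793 genes, with values between 0.391 and 0.495. These cells share library and depth, and the values are descriptions of likeness over cells.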

How the data were processed

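The deposited matrices are unnormalised UMI counts (genes by barcodes), from a droplet 3' v2 kit per the labels' protocols. Cell Ranger 2.1.1 and the build mm10 are named in the submitters' processing notes, while per the file headers the matrices came from Cell Ranger 5.0.1. A 3' kit counts ends of transcripts, so CPM has no length term. Titles set the groups.

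Barcodes passed with 500 genes or more and no more than 10% of UMIs from mitochondrial genes (under 500 genes were 110 albino and 134 pigmented barcodes, over 10% were 136 and 188). Scrublet's automatic threshold called 6 and 4 doublets and had not worked, so the highest scores were called at 0.8% per 1000 barcodes (103 and 287 cells). Both Xist and Y-linked UMIs were in 27.9% of the pigmented calls and 2.27% of the pigmented cells kept. The 2000 most variable genes, without mitochondrial, ribosomal protein and haemoglobin genes, the 43 genes and the cell cycle lists, gave 30 components and 15 neighbours, clustered by the Leiden method at resolution 1.0 (seed 1, both libraries, no batch correction). Clusters were named by the best mean log2 fold of class markers (pseudocount 10 CPM) where that led the next class by 0.3, with at least 3 markers in 10% of cells and no other class having more markers among the cluster's top 10 genes by fold. A cluster whose median UMI count was over 3 times below the library's also needed a marker of its class among those 10.

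Levels are UMIs summed over a class per 1000000, with exact Poisson intervals, and ratios have exact conditional 95% intervals, which cover counting error only. Differences between embryos are not in these intervals. Medians of log2 ratios were taken after adding 1 UMI, over genes with at least 20 UMIs. For per-cell values each cell was thinned to 5800 UMIs. Zero counts have a floor of 3 counts. Histone-high and mitosis-high cells are the top 25% of RPC-like cells by share of UMIs, without cells high for both. Where histone-high cells were compared between classes, cells high for both were kept. The ratio code was tested on simulated data with known folds. Named in full are the gene with the highest RPC-like CPM of each role and the 3 highest and 3 lowest ratios of each comparison among genes with at least 50 UMIs. Any other gene given was chosen after its values were seen. Of the 10 genes most like the summed share of the 43, 1 is not reported here. The 43 genes and all lists were chosen with earlier results of these data known. Gene positions are from GENCODE on GRCm38 (43 of 43 matched). The work used leidenalg 0.10.2, Scanpy 1.11.5, pandas 2.3.3, scikit-learn 1.9.0, SciPy 1.17.1, matplotlib 3.10.9 and NumPy 2.4.6 under Python 3.11.15. Alternatives were equal weight per cell, other filters, clusterings and namings, and cells with Xist and no Y-linked UMI.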

Additional observations from a re-analysis of the deposited data

Results flagged for a closer look

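Rfc1, the large subunit of the clamp loader, was higher in CMZ-like than in RPC-like cells of the albino library, with a ratio of 1.18, and lower in the pigmented library, with a ratio of 0.929. The counting intervals (1.07 to 1.29 and 0.871 to 0.990) lie on opposite sides of 1, and with 1 library per group the difference was not tested. A single albino CMZ-like cell held 9.95% of the Rfc1 UMIs of its class, and with every cell weighted equally the levels were 140.5 CPM in albino CMZ-like and 131 CPM in albino RPC-like cells. The albino log2 ratio was -0.23 with cell cycle genes left in the clustering and -0.10 with classes from marker scores, so its direction turned under both.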

How the results depend on the processing

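Over 160 recomputed medians and class levels, 117 stayed within the spread of the value given, 42 moved and 1 turned in sign. Over 132 recomputed ratios of single genes, 87 stayed, 43 moved and 2 turned in sign (both Rfc1). The cause was not tested. For postmitotic over RPC-like cells, 1 value moved, with doublet calls kept (-2.17 in the pigmented library), and the albino over pigmented median was then -0.45. Neurogenic-like over RPC-like medians in the albino and pigmented library were -0.68 and -0.68 with classes from marker scores and -0.10 and 0.0092 without cluster 9, and in the pigmented library -0.11 without cluster 17. In the pigmented library they were -0.46 in cells with Xist and no Y-linked UMI and -0.50 without mitotic RPC-like cluster 3. CMZ-like over RPC-like medians in the albino and pigmented library were -0.40 and -0.46 with every cell weighted equally, -0.56 and -0.53 at 1000 genes or more, -0.46 and -0.52 with doublet calls kept, -0.80 and -0.76 with cell cycle genes left in the clustering, -0.37 and -0.42 with class markers left out of it, -0.47 and -0.59 with marker scores, -0.46 and -0.56 at a naming margin of 0.5, -0.47 and -0.47 at resolution 1.5, and -0.46 and -0.56 without cluster 3. In pigmented cells with Xist and no Y-linked UMI the median was -0.54. Albino over pigmented medians in CMZ-like cells were 0.057 at 1000 genes or more, 0.015 with cell cycle genes left in the clustering, 0.10 with marker scores, 0.078 at resolution 1.5 and 0.25 in cells with Xist and no Y-linked UMI. In those cells the medians were 0.12 in neurogenic-like and 0.032 in RPC-like cells, and in RPC-like cells also 0.039 with equal weight and 0.10 with class markers left out. Rfc1 in CMZ-like over RPC-like albino cells turned to -0.23 with cell cycle genes left in and -0.10 with marker scores (log2). Thinned to 3000 UMIs, the median postmitotic cell had 1000 CPM of the 43 genes in both libraries. With a wider share of cells in place of the top 25%, histone-high cells had 7156 and 7290 CPM in the albino and pigmented library, against 4946 and 4627 CPM in cells high for neither. Of albino over pigmented intervals, those above 1 in CMZ-like cells numbered 10, and between 5 (cell cycle genes left in) and 19 (Xist and no Y-linked UMI) otherwise. In RPC-like cells they numbered 12, and between 2 (Xist and no Y-linked UMI) and 15 otherwise, with 5 under marker scores. In postmitotic cells those below 1 numbered 4, and 32 with doublet calls kept. Shares of all genes were computed for these counts only in the classes as given and in cells with Xist and no Y-linked UMI. The alternatives without clusters 3, 9 and 17 were chosen after seeing the data. No paired analysis was possible because each group is 1 library. Depth limits Cdc6, Mcm10 and Orc1 in postmitotic cells, where each had under 20 UMIs over both libraries.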
